A study of Rattus norvegicus with 2 samples.

Results

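Molecular chaperones and folding enzymes were compared between endothelial cells that were cultured from the rat aorta and from the endocardium, the inner lining of the heart chambers. The group holds the heat shock protein families, the J proteins, the TCP-1 ring subunits, the protein disulphide isomerases, the FK506-binding proteins and cyclophilins, and Calr, Canx, P4hb, Serpinh1 and Stip1. Members were chosen by gene symbol alone, among probe sets that the platform annotation pairs with exactly 1 symbol. There were 47 such genes of 4736 on the array, read by 89 of 7006 probe sets with 1 symbol. By the place where the protein works, 22 were assigned to the cytosol, 17 to the endoplasmic reticulum (ER), 5 to the mitochondrion and 3 to the nucleus. Cells of each origin came from the same 2 rats, were pooled by origin, kept apart and passaged 2 times under matched conditions, with no treatment named in the labels. Total RNA was hybridised to the Affymetrix rat genome U34A array, so the aortic and the endocardial group have 1 array each. No difference below therefore has a replicate check, none was tested, and animals cannot be told apart within a pool. In such bulk RNA, fewer cells of a type and less RNA per cell cannot be told apart.

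Chaperones bind proteins that are unfolded or being made and help them to fold, to assemble or to reach their compartment. Hsp70 proteins work in cycles driven by ATP that J proteins start, Hsp90 acts later on selected clients, and the chaperonins enclose a protein in a barrel. In the ER, Hspa5 and Hsp90b1 work beside lectin chaperones that read the sugars of glycoproteins and beside isomerases that form disulphide bonds. The heat shock response, driven by Hsf1, raises many cytosolic chaperones, and the unfolded protein response raises those of the ER. Endothelial cells secrete matrix and coagulation proteins through the ER, and small heat shock proteins in vascular cells bind the actin cytoskeleton.

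Most chaperone genes lay close together on the 2 arrays. A gene was measured when at least 1 of its probe sets exceeded a floor of 635.4, the median of all scaled intensities, on at least 1 array. The ratio of a gene, endocardial over aortic, is the median log2 ratio of its measured probe sets. Of the 47 members 41 were measured, and 37 had median intensities above the floor on both arrays. Of the 41, 1 was at least 2-fold brighter on the endocardial array, the ER co-chaperone Dnajb9, against 5.93% of all 2935 measured genes, and 0 were at least 2-fold lower, against 4.16%. At 1.5-fold, 3 were higher, Dnajb9, Hsph1 and Hspb2 (13.1% of all genes), and 0 were lower (11.2%). Among the 37, log2 ratios ran from -0.51 for Hspa9 to 1.36 for Dnajb9, 18 were above 0 and 19 below. Their median was -0.007, beside -0.02 over the 2411 genes above the floor on both arrays.

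The members' ratios were spread less widely than those of all genes on these arrays. The median size of the log2 ratio, whatever its sign, was 0.15 among the 37 members and 0.27 among the 2411 genes. Brightness differed too, since 60.7% of member probe sets and 22.5% of all probe sets with 1 symbol were above the 75th percentile of intensity (2576) on both arrays. Among genes above that percentile on both arrays, the median size was 0.14 for 24 members and 0.22 for all 1088 genes. None of these 24 members differed 1.5-fold in either direction, while 13% of the 1088 genes did. The members also had more probe sets per gene (89 for 47 genes, against 7006 for 4736), and a median over more probe sets varies less. These are descriptions of 2 arrays, and neither the difference in spread nor the part of probe set number in it was tested.

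**Figure D1:**
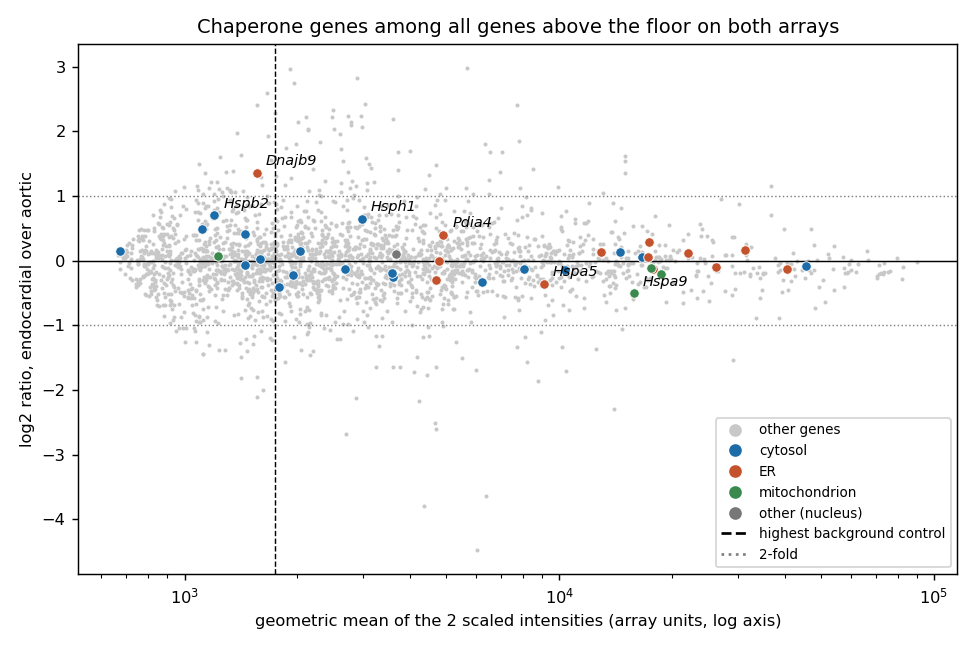
Log2 ratio of each gene, endocardial over aortic (y axis), against the geometric mean of its 2 scaled intensities (x axis, log scale, array units), for genes above the floor on both arrays; coloured points are the 37 chaperone genes by compartment and grey points the other genes. Only Dnajb9 (1.36) among the coloured points lies beyond the 2-fold line, and Hspa9 (-0.51) is the lowest of them.

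The agreement among probe sets of the same gene can be read from genes with several of them. Such probe sets share the RNA and the 2 arrays, so their spread does not measure replicate error. By their names, some also share a source sequence, as in Hspa5, Calr and Hspe1, so their agreement is not independent. Over 625 genes of the array, the log2 ratios of probe sets of the same gene had an SD of 0.39, and over the 21 members that qualified it was 0.21. Of 23 members with several measured probe sets, 15 had all of them on the same side of 0 and 8 had both signs. The 38 background control probe sets, which should find no rat transcript, reached 1742. Intensities under that value may be background, and 28 members were above it on both arrays. Of these 28, 1 was at least 1.5-fold higher (7.85% of 1453 such genes), Hsph1, and 0 were lower (6.95%).

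**Figure D2:**
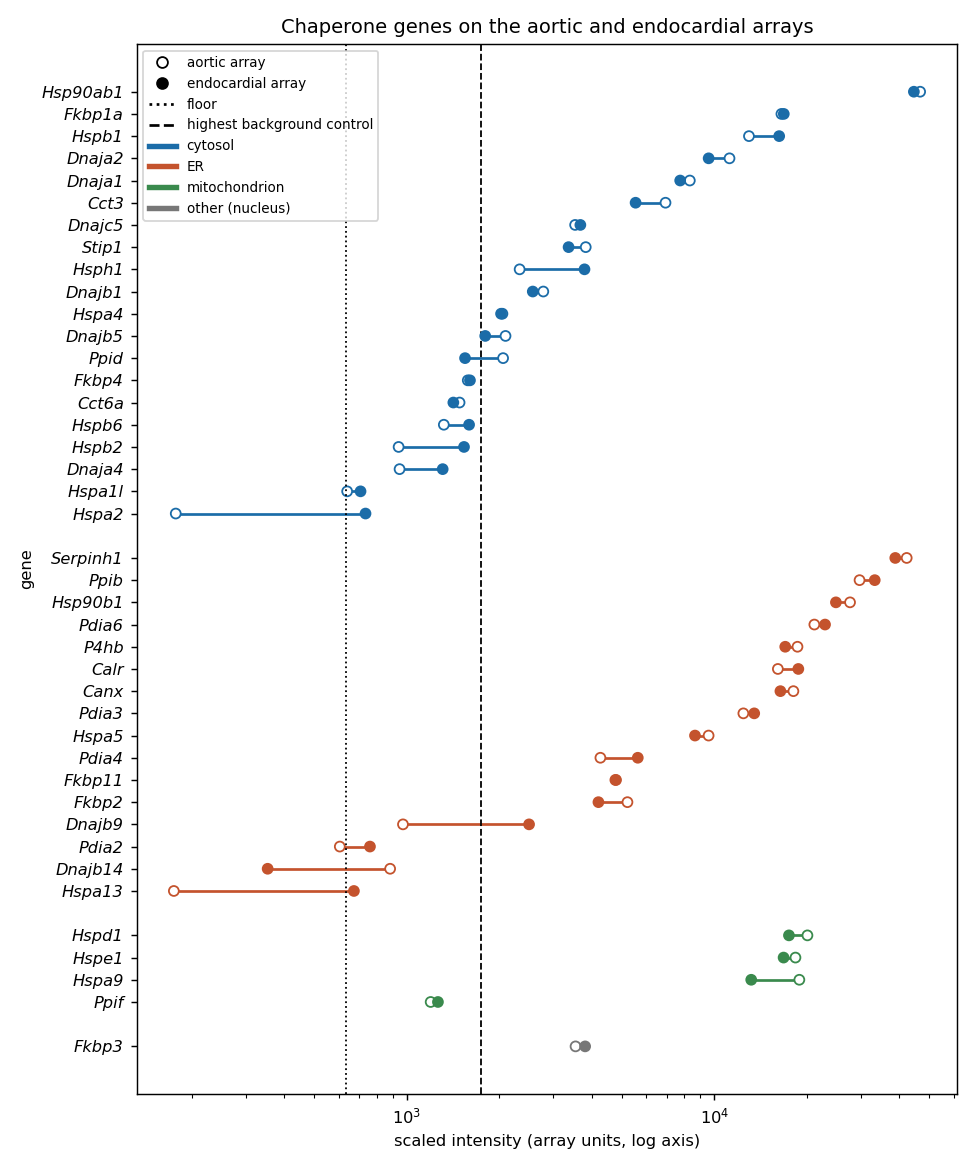
Scaled intensity (x axis, log scale, array units) of the 41 measured chaperone genes on the aortic array (open circles) and the endocardial array (filled circles), grouped by compartment; the dotted line is the floor (635.4) and the dashed line the highest background control (1742). Each gene is the median of its measured probe sets, and the widest gaps are at genes with at least 1 value left of the dashed line, such as Dnajb9. Intensities of different genes rest on different probes and give no order of expression.

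The ER members included genes whose promoters carry the ER stress element, the site read by the unfolded protein response. The element was searched as CCAAT followed after any 9 bases by CCACG, on both strands of the 250 bases before to 50 bases after each RefSeq start (assembly GRCr8). Of the 47 members 42 matched the promoter table. The element was found in 4 of these 42, all 4 among the 15 of ER genes, and in 21 of 27457 promoters in all (0.0765%). The 4 promoters are shown upstream of the start, 5′ to 3′ on the gene's strand, with the fixed letters of the element in capitals. These were the only member promoters in which the element was found. They are from Hspa5 (chr3:38452766-38453015, plus strand), Hsp90b1 (chr7:23012294-23012543, minus strand), Calr (chr19:40213117-40213366, plus strand) and Canx (chr10:35157858-35158107, minus strand).
Hspa5: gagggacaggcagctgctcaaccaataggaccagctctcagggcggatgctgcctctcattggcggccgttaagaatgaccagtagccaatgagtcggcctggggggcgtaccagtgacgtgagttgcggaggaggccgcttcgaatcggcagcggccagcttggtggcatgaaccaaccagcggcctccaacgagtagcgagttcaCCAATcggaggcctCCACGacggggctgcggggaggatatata
Hsp90b1: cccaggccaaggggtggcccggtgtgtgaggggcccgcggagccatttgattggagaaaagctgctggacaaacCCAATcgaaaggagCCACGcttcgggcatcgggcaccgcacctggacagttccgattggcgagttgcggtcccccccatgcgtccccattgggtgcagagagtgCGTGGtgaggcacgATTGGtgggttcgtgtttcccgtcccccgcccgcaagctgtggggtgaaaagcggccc
Calr: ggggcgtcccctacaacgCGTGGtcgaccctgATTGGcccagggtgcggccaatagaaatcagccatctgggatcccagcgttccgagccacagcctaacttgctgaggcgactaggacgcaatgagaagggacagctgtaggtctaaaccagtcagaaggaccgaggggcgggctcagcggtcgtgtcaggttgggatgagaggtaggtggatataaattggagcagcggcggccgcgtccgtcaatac
Canx: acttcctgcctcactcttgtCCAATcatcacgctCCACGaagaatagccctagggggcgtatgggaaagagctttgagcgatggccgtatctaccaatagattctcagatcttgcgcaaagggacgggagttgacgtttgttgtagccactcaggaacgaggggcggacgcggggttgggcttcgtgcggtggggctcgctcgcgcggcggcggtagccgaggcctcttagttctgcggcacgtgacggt
The Hsp90b1 window holds 2 elements, starting 176 and 72 bases before the start, and the others hold 1 each, in Hspa5 43 bases before it. A match of letters describes the sequence and shows no binding.

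These 4 genes did not share a direction. Hspa5, the ER Hsp70 also called BiP, was lower on the endocardial array with all 3 probe sets. Its probe set values were 37561 (aortic) and 29356 (endocardial), 9584 and 8655, and 976 and 680, with a median log2 ratio of -0.36. Both values of the dimmest probe set lay under the highest background control. Hsp90b1, the ER Hsp90, had values of 27631 and 24860.2, of 29494 and 27454.5, and of 14766 and 16527, so that its last probe set went against the others (median log2 ratio -0.10). Calr, a soluble lectin chaperone that also binds calcium, was higher with all 3 probe sets. Calr stood at 22407 (aortic) and 29219.8 (endocardial), at 13115 and 16045, and at 16097 and 18763, with a median log2 ratio of 0.29. Canx, its membrane-bound partner, had 5 probe sets, at 18082 and 16406, 16955 and 16199, 6540.5 and 6847, 19722 and 20586.5, and 21340.3 and 23148. Their log2 ratios lay on both sides of 0, from -0.14 to 0.12, with a median of 0.06.

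Dnajb9, a J protein of the ER that works with Hspa5 and helps to clear misfolded proteins, was the member with the largest difference. Its single probe set read 972 (aortic) and 2499 (endocardial), a 2.57-fold higher value. The aortic value was under the highest background control and the endocardial value above it. With the floor at that control the log2 ratio of Dnajb9 was at least 0.52. The letters of the ER stress element were not in the Dnajb9 window.

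The protein disulphide isomerases make and rearrange disulphide bonds in secreted proteins, and 5 of them were measured. Pdia4 was brighter on the endocardial array, at 4263 (aortic) and 5640 (endocardial) (log2 ratio 0.40, 1 probe set). Pdia3, which works with the lectin chaperones, read 23334 and 25249 with one probe set and 1531 and 1720.1 with the other (median 0.14). Pdia6 read 21152 and 22916 (0.12). P4hb, which is also a subunit of collagen prolyl hydroxylase, had 3 probe sets with log2 ratios from -0.18 to -0.02, at 42922 and 37836, 18644 and 17010.3, and 15281 and 15101. Pdia2 was under the floor on the aortic array (606) and read 759 on the endocardial array, a log2 ratio of at least 0.26. Both Pdia2 values were under the highest background control. All 3 of Pdia3, Pdia4 and Pdia6 thus had positive ratios under every scaling tried, while P4hb had a negative one.

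Serpinh1, the chaperone of collagen, read 42231 (aortic) and 38771 (endocardial) (log2 ratio -0.12). Ppib, an ER cyclophilin that isomerises prolines in collagen, read 29525 and 31288 with one probe set and 29820.3 and 35203 with the other (median 0.16). Fkbp2, an ER member of the FK506-binding proteins, was lower with both probe sets, at 6725 and 5217 and at 3715 and 3184 (median -0.29). Fkbp11 read 4792 and 4769 (-0.007), a sign that turned when ratios were centred (0.02) or fitted by loess (0.005). Hspa13, an Hsp70 of microsomes, was under the floor on the aortic array (175) and read 673 on the endocardial array, at least 1.06-fold higher. Both Hspa13 values were under the highest background control. Dnajb14, a membrane J protein, went the other way, from 883 to 353, at least 1.39-fold lower, and both of its values were under the highest background control. Over the 13 ER members above the floor on both arrays, 7 ratios were above 0 and 6 below, with a median of 0.06.

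The heat shock element, the site of Hsf1, was searched in the same windows as 3 inverted units (GAA, TTC and GAA, each 2 bases apart) on either strand. It was present in 5 of the 42 member promoters (11.9%) and in 202 of all 27457 (0.736%). The shorter form with 2 units, GAANNTTC or TTCNNGAA, which the longer one contains, was in 14 of the 42 (33.3%) and in 15.4% of all promoters. By compartment, the shorter form was in 9 of 20 cytosolic, 2 of 15 ER and 3 of 5 mitochondrial promoters. The 3-unit element lay upstream of the start in Hsph1 (chr12:10427118-10427367, plus strand), Serpinh1 (chr1:163062977-163063226, minus strand) and Hspe1 (chr9:64084077-64084326, plus strand), printed here with its fixed letters in capitals because they show the same element in a cytosolic, an ER and a mitochondrial gene.
Hsph1: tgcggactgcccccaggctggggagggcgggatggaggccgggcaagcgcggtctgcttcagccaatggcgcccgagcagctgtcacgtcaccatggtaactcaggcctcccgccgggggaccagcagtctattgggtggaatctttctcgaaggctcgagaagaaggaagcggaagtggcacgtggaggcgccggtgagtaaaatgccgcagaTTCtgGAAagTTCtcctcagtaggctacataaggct
Serpinh1: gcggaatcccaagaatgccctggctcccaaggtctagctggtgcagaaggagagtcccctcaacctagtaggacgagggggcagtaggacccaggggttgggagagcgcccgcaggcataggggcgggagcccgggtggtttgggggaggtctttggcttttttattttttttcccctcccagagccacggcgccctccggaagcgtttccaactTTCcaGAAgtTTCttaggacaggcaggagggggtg
Hspe1: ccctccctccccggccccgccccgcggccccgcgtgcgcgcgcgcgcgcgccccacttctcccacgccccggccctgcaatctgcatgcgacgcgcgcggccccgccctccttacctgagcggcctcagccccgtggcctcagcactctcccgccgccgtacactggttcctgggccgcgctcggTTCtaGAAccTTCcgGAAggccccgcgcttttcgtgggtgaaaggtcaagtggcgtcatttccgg
The fourth gene, Hspd1, shares the run of Hspe1, as described with the mitochondrial genes. In Dnaja1, the fifth, the element lay after the start.

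Hsph1, an Hsp110 that exchanges nucleotide on Hsp70 and helps it to dissolve aggregates, was the only cytosolic member at least 1.5-fold higher with median intensities above the highest background control on each array. One probe set read 3422 (aortic) and 5761 (endocardial) and the other read 1235 and 1808. Both were thus higher on the endocardial array, by 1.68-fold and 1.46-fold, with a gene log2 ratio of 0.65. The lower aortic value was under the highest background control, and with the floor there the gene no longer passed 1.5-fold. Of the 4 other genes with the 3-unit element, Serpinh1 (-0.12), Dnaja1 (-0.13), Hspe1 (-0.12) and Hspd1 (-0.20) all had negative log2 ratios.

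The Hsp70 genes of the cytosol were dim or divided. Hspa4, an Hsp110-like exchange factor, had a probe set that read 3052 (aortic) and 2480.4 (endocardial) and another that read 1042 and 1572. The gene ratio of 0.15 is the middle of log2 ratios of -0.30 and 0.59 and gives no direction. Hspa1l, a form known from the testis, read 640.2 and 708, just above the floor. Hspa2, also known from the testis, read 177 and 734, at least 1.16-fold higher. All values of Hspa1l and Hspa2 were under the highest background control. The stress-inducible Hspa1a was under the floor on both arrays (295 and 113) with its only probe set of 1 symbol, and probe sets that it shares with other symbols were not used.

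Hsp90ab1, the constitutive cytosolic Hsp90, was read by 4 probe sets. They gave 43749 (aortic) and 44279 (endocardial), 49655 and 44849.6, 21656 and 21395, and 52212 and 47063. The gene log2 ratio was -0.08 and turned to 0.02 with a loess fit, so no direction is given. Stip1, which hands clients from Hsp70 to Hsp90, read 3820 and 3359 (-0.19). Among the immunophilins that bind Hsp90, Fkbp4 had 3 probe sets with ratios from 0.02 to 0.20, and Ppid read 2057 and 1547 (-0.41), with the endocardial value under the highest background control.

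J proteins deliver clients to Hsp70 and set off its ATP cycle. Dnaja1 read 13384 (aortic) and 12592 (endocardial) with one probe set and 3269 and 2902 with the other (median -0.13). Dnaja2 had 3 probe sets, all lower on the endocardial array, at 6875 and 6484, 13651 and 12323, and 11207 and 9587 (-0.15). Dnajb1, the heat-inducible J protein, was divided between 2834 and 2184 for one probe set and 2727 and 2954 for the other (-0.13). Dnajb5 read 2095 and 1799.8 (-0.22). Dnajc5, the cysteine string protein of vesicles, was divided too, with 5495 and 6382 for its brighter and 1561 and 956 for its dimmer measured probe set. Dnaja4 stood apart from these, with 1344 and 1488 for one probe set and a value under the floor (552) against 1129 for the other. These are 1.11-fold and at least 1.78-fold higher, with a gene log2 ratio of at least 0.49 from their middle and of 0.15 with the brighter probe set alone. Every Dnaja4 value was under the highest background control.

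**Figure D3:**
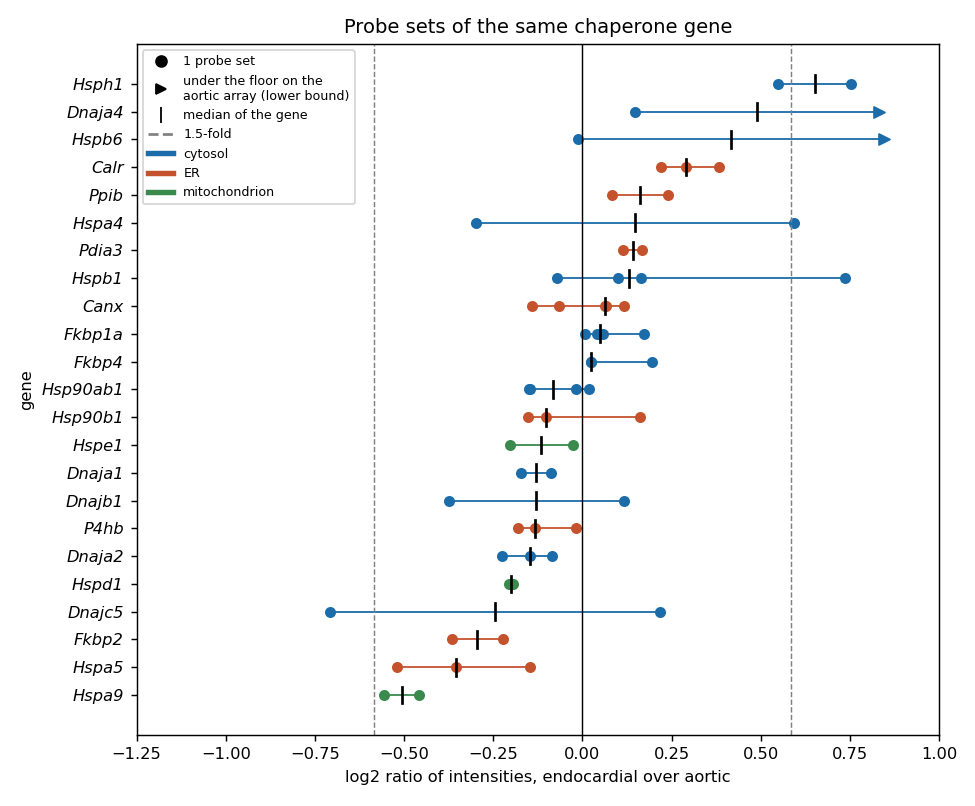
Log2 ratio, endocardial over aortic (x axis), of each measured probe set of the 23 chaperone genes (rows) with several of them; black ticks are gene medians, triangles are lower bounds and dashed lines mark 1.5-fold. The probe sets of Hsph1, Calr, Hspa5 and Hspa9 each lie on one side of 0, while those of Hspa4, Dnajc5 and Dnajb1 lie on both.

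The small heat shock proteins hold unfolding proteins without ATP and are abundant in muscle and vascular cells. Hspb1 was read by 4 probe sets. They gave 18211 (aortic) and 20386.5 (endocardial), 18354 and 19658, 4410.3 and 4198, and 7718 and 12856. One probe set differed from the other 3, with a log2 ratio of 0.74 against -0.07 to 0.16, and the gene ratio was 0.13. Hspb2, a partner of small heat shock proteins in muscle, had 1 measured probe set at 941 and 1535, 1.63-fold higher, and another below 0 on both arrays. Hspb6, a phosphoprotein of smooth muscle, read 2066 and 2049 with one probe set and had a value under the floor (575) against 1141 with the other. Its gene ratio of at least 0.42 went to -0.01 with its brighter probe set alone. Neither Hspb2 value exceeded the highest background control.

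The remaining cytosolic members belong to the TCP-1 ring and the FK506-binding proteins. The TCP-1 ring folds actin and tubulin, and of its subunits Cct3 read 6941 (aortic) and 5548 (endocardial) (-0.32) and Cct6a 1485 and 1418 (-0.07). Fkbp1a, the target of FK506 and rapamycin and a regulator of TGF beta receptors, had 4 probe sets that all lay near 0, from 0.01 to 0.17 in log2 ratio, the brightest at 19131 and 21578. Over the 19 cytosolic members above the floor on both arrays, 9 ratios were above 0 and 10 below. Their median was -0.07, which turned to 0.02 with a loess fit. Of the 3 nuclear members only Fkbp3 was measured, at 3539 and 3803 (0.10). Besides Hspa1a and the mitochondrial Dnaja3, 4 members were under the floor on both arrays. They were the ER J protein Dnajc1 (328 and 497), the nuclear Dnajc17 (234 and 300.1), the calcium channel partner Fkbp1b (-2.6 and 81.7) and the nuclear cyclophilin Ppig, whose 2 probe sets reached at most 82.6.

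None of the 4 measured mitochondrial members differed 1.5-fold in either direction. Hspa9, the Hsp70 that pulls proteins into the matrix, read 24229.7 (aortic) and 16478 (endocardial) with one probe set and 13583 and 9895 with another, a gene log2 ratio of -0.51. A further Hspa9 probe set was under the floor on both arrays, at 104 and 571. Hspd1, the chaperonin of the matrix, read 21413 and 18709 and read 18759 and 16271 (-0.20). Hspe1, its lid, read 15159 and 14879 and read 21565 and 18724 (-0.12). These 3 genes, with 2 measured probe sets each, had negative ratios, as had 777 of the 1453 genes above the highest background control on each array. The ratios of Hspd1 and Hspe1 were smaller than the SD among probe sets of the same gene, 0.39 over all genes and 0.21 over members. That SD does not measure replicate error, so it does not test any of these ratios. Ppif, the cyclophilin of the permeability pore, read 1196 and 1263 (0.08), under the highest background control, and Dnaja3 was below 0 on both arrays. The median over the 4 measured genes was -0.16, and it stayed below 0 under every scaling tried.

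Hspd1 and Hspe1 are neighbours that are read in opposite directions from starts 289 bases apart. The run of 4 units in capitals in the Hspe1 sequence, 18 bases long at chr9:64084262-64084279, is the same run that the search found in the Hspd1 window. It starts 65 bases before the start of Hspe1 and 242 bases before that of Hspd1. The 2 genes had log2 ratios of -0.12 and -0.20, which differ by less than the SD of 0.39 among probe sets of the same gene, a spread without replicates.

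Genes that work beside the chaperones were read from 4 lists. In the unfolded protein response and ER transport list, 10 of 29 genes were on the array with 1 symbol and measured, 0 were at least 2-fold higher and 2 were lower, with a median log2 ratio of -0.16. Beside these counts, 5.93% of all measured genes were 2-fold higher and 4.16% lower. The 2 were Ddit3, a transcription factor of prolonged stress (9251 (aortic) and 3266 (endocardial), 2.83-fold lower), and Ppp1r15a, which restarts translation (3659 and 1638, 2.11-fold lower, with the endocardial value under the highest background control). Trib3, a pseudokinase, had median intensities of 6369 and 3152 over 2 probe sets and a median log2 ratio of -0.59. The kinase Eif2ak3, a sensor of ER stress, had a median log2 ratio of -0.20 from probe sets at -0.50 and 0.09. Hyou1, an ER Hsp110 that serves Hspa5, was 1.60-fold higher (3699.99 and 5919, 0.68). The brightest genes of the list, the translocon subunit Sec61b (28176 and 25130.2, -0.17) and its associate Ssr4 (14578 and 12531, -0.16), were close on both arrays.

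The other 3 lists held no gene past 2-fold. Of 15 genes listed as co-chaperones, heat shock factors or related chaperones 5 were measured, with a median of -0.09. Among them were Cryab, a small heat shock protein outside the symbol rule (40854 and 43456, 0.11), and the Hsp90 co-chaperone Cdc37 (14466 and 12334, -0.29). Hsf1 itself, with 3 probe sets, had a median log2 ratio of -0.09 but median intensities of 1617 and 1778, which run the other way and lie near the highest background control, so no direction is given. Of 11 collagen-modifying enzymes 5 were measured, with a median of 0.15. P4ha1, which pairs with P4hb, read 32576 and 23646.5 (-0.46), and Pcolce read 37635 and 31211 (-0.27). The lysyl hydroxylases Plod1 (0.16), Plod2 (20894 and 27294, 0.39) and Plod3 (0.15) had positive ratios. Of 11 genes of mitochondrial import and quality control 5 were measured, with a median of -0.17, 3 ratios below 0 and 2 above. Tomm20 read 17345 and 15085 (-0.21), Phb2 13457 and 11954 (-0.17), and Grpel1, the nucleotide exchange factor of Hspa9, 3742 and 3151 (-0.25). Trap1, the Hsp90 of mitochondria, read 1761 and 2279.8 (0.37), and Timm44 776 and 839.6 (0.11).

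**Figure D4:**
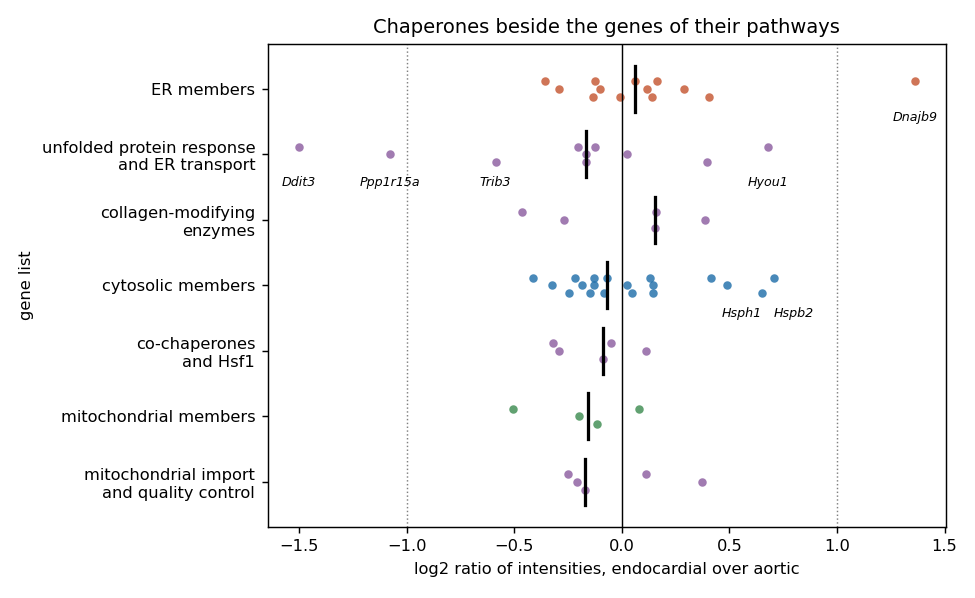
Log2 ratio, endocardial over aortic (x axis), of genes above the floor on both arrays in the 3 main chaperone compartments and in 4 lists of genes that work beside them (rows); each point is a gene, black bars are medians, dotted lines mark 2-fold and genes past 1.5-fold are named. Ddit3 (2.83-fold lower) and Ppp1r15a (2.11-fold lower) lie beyond 2-fold on the lower side and Dnajb9 (1.36) on the higher side.

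Markers of the labelled and other cell types were read on the same arrays. Of 12 endothelial markers 8 were on the array with 1 symbol and 4 were above the floor (Flt1, Nos3, Thbd and Ace), while Pecam1, Vwf, Kdr and Icam2 were under it on both arrays. Thbd alone exceeded the highest background control on each array, while Flt1 (827 and 1054), Nos3 (1396 and 1382) and the endocardial value of Ace (1028) did not. The endothelial intensities, with values under the floor set to it, summed to 8441 (aortic) and 6312 (endocardial). The sums were 89815 and 138824 for 5 of 8 smooth muscle markers, 251833 and 220603 for 7 of 9 fibroblast markers, and 6958 and 46077 for 6 of 9 macrophage and leukocyte markers. The 4 measured of 7 cardiomyocyte markers summed to 4173 and 3364, and the 2 measured of 5 mesothelial and epicardial markers to 1543 and 2798. Intensities of different genes rest on different probes, so the sums give no order of cell types. Bright genes weigh most in a sum, such as Col1a1 (74687 and 68163) among the fibroblast markers. The members of a list did not all move together. Lyz2 gave 33619.5 of the macrophage sum on the endocardial array and was under the floor on the aortic array. Ctss (329 and 3376), Cd53 (593 and 2010) and Cd74 (medians of -291 and 1897) also had only their aortic value under the floor. Of the 6 measured macrophage and leukocyte markers, 4 thus passed 2-fold toward the endocardial side and 0 toward the aortic side. Cd14 read 3246 and 4070. Ptprc read 1171 and 1103, and Csf1r and Itgam were under the floor on each array. Of the smooth muscle markers, Myh11 went from 2533 to 614, under the floor. The 4 above the floor on both arrays were all higher on the endocardial array, with a median log2 ratio of 0.84. Acta2 went from 26902 to 50038.6, Myl9 from 8784 to 25455.5, Cnn1 from 2013 to 3953 and Tagln from 49583.5 to 58741.5. Among the fibroblast markers, Dcn was 13.9-fold lower (1 of its 4 probe sets gives a bound) and Postn 7.87-fold higher on the endocardial array. The part of other cell types in any chaperone ratio was not tested. The settings recorded for the 2 arrays differed in 2 of 41 fields, the fluidics module and the scan time, and cannot be told apart from the origin of the cells.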

How the data were processed

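Total RNA of 1 aortic and 1 endocardial pool was read on Affymetrix rat genome U34A arrays, per the labels. The deposited values were linear intensities, 1 per probe set and array; the authors' probe summary method is not stated in the sources used. The scanner settings, deposited as other files, hold no measurement. From these, 59 control probe sets were set aside and 8740 others scaled to one trimmed mean (2% off each end; factors 1.00 and 0.999). Values were floored at their median (635.4). A fold against a value at or under the floor is a lower bound. Background controls were 38 opposite-strand, bacterial, yeast and mouse probe sets. Probe sets were named by the platform annotation, not checked by sequence: 7006 had 1 symbol, 308 several and 1426 none. All member symbols are those of the RefSeq gene table (GRCr8), and promoter sequences are RefSeq's. With 1 array per group no test was possible, and precision is limited by the number of arrays. Genes were counted at 2-fold, and at 1.5-fold as a choice made after the data were seen. Members and lists were chosen with earlier results of these data known. Every member may be named; values are given for those past a threshold, the brightest, and the extremes of each compartment, and of each list those past 2-fold and the brightest 2. Other list genes were named after their values were seen. The counting step was tested on simulated data. Python 3.11.15, pandas 2.3.3, SciPy 1.17.1 and statsmodels 0.14.6 (loess span 0.4) were used.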

Additional observations from a re-analysis of the deposited data

How the results depend on the processing

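The scaling alternatives (deposited values, quantile normalization, centring, loess) and both other ways to combine probe sets left the counts past 2-fold at 1 higher and 0 lower. The choice of floor changed them. The number at least 2-fold higher was 0 with the floor at the 75th percentile where both Dnajb9 values fall under it, and 0 with it at the top background control, which only the aortic Dnajb9 value falls under. With no floor 3 were higher (Dnajb9, Hspa2 and Hspa13) and 2 lower (Hspa1a and Dnajb14). The 1.5-fold counts were 1 and 0 higher with the raised floors, and 7 higher and 2 lower with none. The median log2 ratio of all members was -0.093 with the floor raised to the top background control. Of 318 values of 37 genes under alternatives, 310 moved by less than the SD among probe sets of a gene (0.39) and 8 by more. These 8 belong to Dnajb9, Dnajc5, Hspa4 and Hspb6. Values under 1742 may be background, which limits 9 of the 37 genes above the floor on both arrays. No paired analysis was possible because each group has 1 array.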

Other observations

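Probe sets whose annotation pairs a symbol of these families with other symbols were outside the rule and were not named. There were 14 of them, and 10 exceeded the floor on each array. Their log2 ratios, endocardial over aortic, ran from -0.84 to 0.16 with a median of -0.06, and 8 were below 0 and 2 above.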
